A study of Mus musculus with 12 samples.

Results

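The expression of Ly6c1, Ly6c2, Ly6a and Ly6e was followed in splenic Treg with and without CD18, the common β chain of the β2 integrins, before and after stimulation in culture. These 4 genes were taken by name from the 41457 genes counted in each of 12 RNA-Seq libraries. The family was chosen by the Ly6c1 counts of unstimulated CD18Foxp3 and CD18wt Treg, so the difference between genotypes in unstimulated Treg is given here as a description without a test. The remaining comparisons were tested.

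Treg were sorted from spleen as RFP+CD4+ cells of mice with a Cre inserted at Foxp3 and a Cre-dependent RFP reporter in the Gt(ROSA)26Sor locus. In CD18Foxp3 mice both copies of Itgb2, the gene of CD18, carried a floxed exon (CD18 fl/fl), which Cre removes in Foxp3-expressing cells, and the CD18wt controls were CD18 wt/wt littermates that also carried Foxp3Cre. The mice were age and sex matched, and their age is not given in the sources used here. All cells were kept overnight in 5 U/mL recombinant human IL-2, and the stimulated groups additionally received antibodies to CD3 (1 μg/mL) and to CD28 (2 μg/mL), which engage the T cell receptor complex and its costimulatory receptor. Each of the 4 combinations of genotype and culture held 3 libraries. The labels call the libraries of a group biological replicates, and the study shows them as individual mice.

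Ly6 proteins are small proteins with a fold held together by disulfide bonds, and the 4 described here are tethered to the outer leaflet of the plasma membrane by a glycosylphosphatidylinositol (GPI) anchor. Ly6c1 and Ly6c2 are near-identical neighbours whose products are stained together as Ly6C, a marker of monocytes and of subsets of T cells; among Treg, Ly6C marks cells with a resting phenotype. Ly6a encodes Sca-1, a marker of stem cells and of activated lymphocytes, and Ly6e encodes a protein also known as thymic shared antigen. Transcription of several Ly6 genes is raised by interferons.

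All 4 genes lie within one cluster on chromosome 15 of GRCm38, and no annotated gene overlaps any of them. In that order Ly6e (ENSMUSG00000022587, chr15:74955051-74959905) is on the plus strand, and Ly6a (ENSMUSG00000075602, chr15:74994877-74998031), Ly6c1 (ENSMUSG00000079018, chr15:75044018-75048830) and Ly6c2 (ENSMUSG00000022584, chr15:75108158-75111970) are on the minus strand. The coding sequences of Ly6c1 and Ly6c2 have 396 bases each and differ at 9 of them, an identity of 97.7%. The coding sequence of Ly6a was 82% identical to that of Ly6c1, and that of Ly6e 49.9% identical to it. Since the reads had 59 bases, all stretches of 59 bases were compared between the annotated transcripts of GRCm38. Of the stretches in Ly6c1 transcripts, 27.6% occur in another gene, 328 of them in Ly6c2 and 159 in Ly6a. The corresponding shares were 12.2% for Ly6c2 and 14.7% for Ly6a, and none of 4256 stretches of Ly6e occurred elsewhere.

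The part of the coding sequence that best separates the Ly6c genes lies close to the start codon. The following stretches of 59 bases cover coding bases 7 to 65 (chr15:75048447-75048505 in Ly6c1 and chr15:75111603-75111661 in Ly6c2, minus strand, GRCm38), and capitals mark the 6 bases at which they differ.
Ly6c1: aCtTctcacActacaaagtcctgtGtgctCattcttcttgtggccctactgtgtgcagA
Ly6c2: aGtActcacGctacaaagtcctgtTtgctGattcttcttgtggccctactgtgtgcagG
Directly downstream, coding bases 66 to 253 are the same in both genes over 188 bases. A read from this run, which is spliced from more than one exon between 75045545 and 75048446 in Ly6c1 and between 75108686 and 75111602 in Ly6c2, could not be assigned to one gene by its sequence.
Ly6c1 and Ly6c2: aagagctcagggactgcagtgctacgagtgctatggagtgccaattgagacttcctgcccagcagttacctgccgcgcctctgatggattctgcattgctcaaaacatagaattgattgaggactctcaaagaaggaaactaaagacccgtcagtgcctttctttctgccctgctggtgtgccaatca
Of the 338 possible reads within the coding sequence, 144 were identical between the Ly6c genes, 163 differed at 1 or 2 bases and 31 at 3 or more.

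The libraries held 10665174 to 19005482 exon reads. Stimulated CD18Foxp3 replicate 1 and unstimulated CD18wt replicate 3 stood further from the other libraries of their groups than those did from each other. Itgb2, the targeted gene, was at 387 to 465 TPM, the deposited level scaled for exon length and library, in unstimulated CD18wt libraries and at 229 to 257 TPM in unstimulated CD18Foxp3 libraries. After stimulation it was at 329 to 331 TPM and 131 to 202 TPM, and the genotypes overlapped in neither culture; the counts cover the whole gene and not the deleted exon alone. Foxp3 was at 73.4 to 207.5 TPM and Cd4 at 279 to 657 TPM. Of the markers of other cells, Ncr1 (NK cells), Siglech (plasmacytoid dendritic cells) and Emcn (endothelium) had no read in any library, and Cd8a reached at most 1.21 TPM. The other NK cell markers, Klrb1c and Eomes, were detected at up to 5.32 and 4.82 TPM. The sum of the 3 NK cell markers was 6.52 to 8.55 TPM in unstimulated CD18wt, 3.88 to 5.77 TPM in unstimulated CD18Foxp3, 1.17 to 2.31 TPM in stimulated CD18wt and 1.11 to 2.54 TPM in stimulated CD18Foxp3 Treg, and its part in the results was not tested. The summed level of 5 markers of monocytes and macrophages was 7.09 to 23.4 TPM, and that of 4 neutrophil markers at most 1.15 TPM. Lists with higher sums owed them to single genes, namely Bst2 (133 to 374 TPM), Xbp1 (57.5 to 163 TPM), Cd8b1 (12.4 to 30.4 TPM), Cd79b (8.17 to 29.2 TPM) and Pecam1 (13.4 to 56.0 TPM). Which cells these transcripts came from was not tested. The erythroid gene Hbb-bs reached 24.9 TPM in unstimulated CD18Foxp3 replicate 2.

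**Figure D1:**
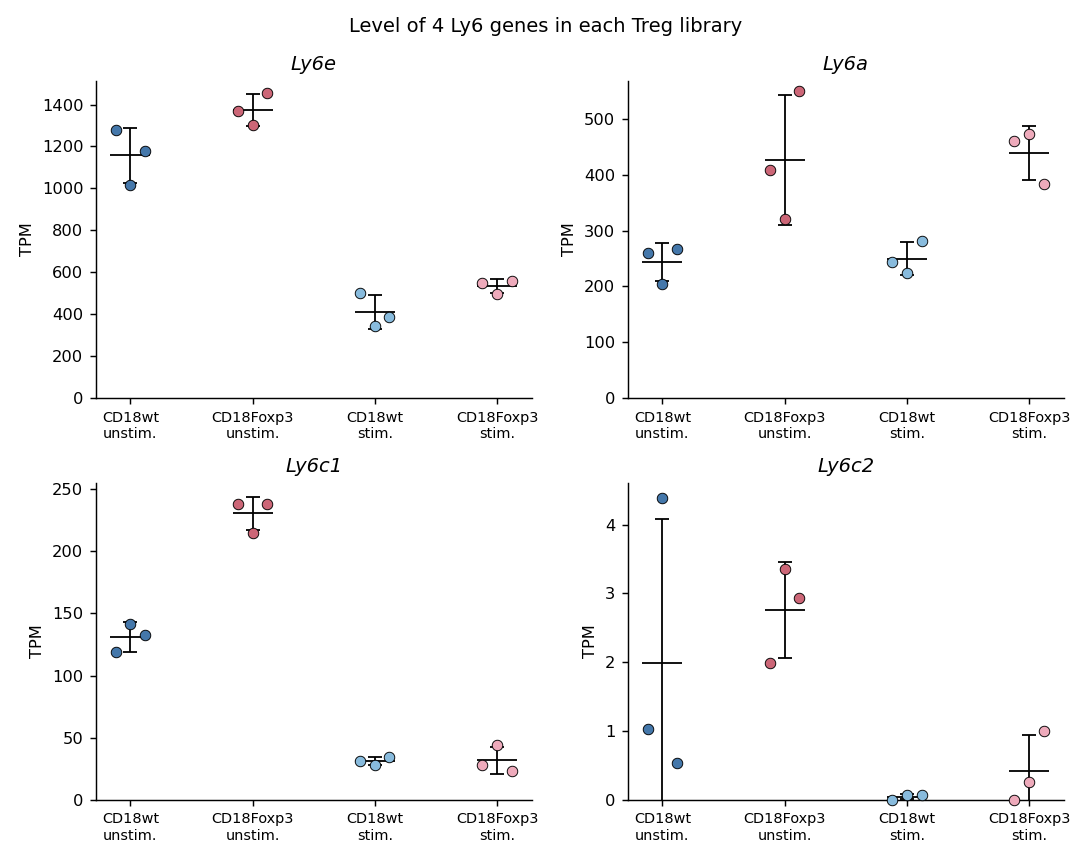
Level of Ly6e, Ly6a, Ly6c1 and Ly6c2 in TPM (vertical axes, linear and starting at 0) in the 3 libraries of each group. Points are libraries, horizontal lines are means and error bars are SD, cut at 0. Ly6e and Ly6c1 are lower in all stimulated than in all unstimulated libraries, whereas Ly6a separates the genotypes in both cultures.

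In every one of the 12 libraries the order of levels was Ly6e above Ly6a above Ly6c1 above Ly6c2. Levels between genes are compared here in TPM, which divide reads by the exon length of a gene. Ly6e ranked between 103 and 392 among all genes by TPM, Ly6a between 226 and 679, Ly6c1 between 473 and 5602, and Ly6c2 between 9071 and 16434. Ly6c1 ranked from 822 to 994 in unstimulated CD18wt libraries and from 4560 to 4820 in stimulated ones.

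Ly6c1, one of the Ly6C genes, was expressed at intermediate levels. In unstimulated CD18wt Treg the libraries held 1261, 1604 and 903 exon reads, or 118.6, 141.9 and 132.6 TPM. In unstimulated CD18Foxp3 Treg they held 2852, 2078 and 2488 reads, or 238.3, 215.0 and 238.5 TPM. All 3 CD18Foxp3 libraries thus lay above all CD18wt libraries in this culture, which held for 8.74% of the 11829 genes tested there. After stimulation the CD18wt libraries were at 31.2, 27.9 and 34.5 TPM and the CD18Foxp3 libraries at 27.6, 44.0 and 23.4 TPM. The stimulated groups overlapped, with the highest and the lowest of the 6 values both in CD18Foxp3 Treg.

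Upon stimulation Ly6c1 fell in both genotypes. In CD18wt Treg its level went from 131.0 ± 11.7 TPM to 31.2 ± 3.26 TPM (SD, n = 3), a log2 fold change of -2.47 (SE 0.14, adjusted p = 1.04e-07, edgeR quasi-likelihood test). The threshold for a call was a change of 1.5-fold or more in either direction with an adjusted p no higher than 0.01. It was passed by 33.6% of the 11930 genes tested in CD18wt Treg, and 14.9% passed it as lower in stimulated cells. In CD18Foxp3 Treg the level went from 230.6 ± 13.5 TPM to 31.7 ± 10.9 TPM (SD, n = 3), with a log2 fold change of -3.23 (SE 0.21, adjusted p = 4.43e-06, edgeR quasi-likelihood test). There, 38.6% of 12019 genes passed the threshold and 17.6% passed it as lower. No unstimulated library overlapped a stimulated one in either genotype, and the exact two-sided permutation test gave p = 0.1, the smallest value that 3 against 3 libraries allow. The share of all genes that separate in TPM between cultures was not counted. By edgeR, 6584 of 11930 genes in CD18wt and 7379 of 12019 in CD18Foxp3 Treg had an unadjusted p under 0.05, so separation may be common. The comparisons between cultures use the same unstimulated libraries that chose the family; a high value there makes the fall in CD18Foxp3 Treg larger and a low value makes that in CD18wt Treg smaller.

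The genotypes did not overlap in Ly6c1 before stimulation, where 8.74% of genes tested separated in the same direction, and overlapped after it. In unstimulated Treg the log2 fold change was 0.79 (SE 0.09). This contrast chose the family, so nothing is read from the value beside the 0.135% of 11829 genes past the threshold there, a share that itself varied with the processing. In stimulated Treg it was 0.03 (SE 0.24, adjusted p = 0.998, edgeR quasi-likelihood test; exact permutation p = 0.9 on log2(TPM + 1)). The log2 fold change in stimulated Treg was -0.25 without CD18Foxp3 replicate 2, which held the highest stimulated value, and 0.20 without CD18Foxp3 replicate 3, which held the lowest. As a description, the stimulation response differed between genotypes by -0.76 on the log2 scale (SE 0.24) in a fit of all 12 libraries, by -1.05 without stimulated CD18Foxp3 replicate 2 and by -0.60 without replicate 3.

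Ly6c2 was close to the lower limit of detection. It held 18, 81 and 6 exon reads in unstimulated CD18wt Treg and 39, 53 and 50 in unstimulated CD18Foxp3 Treg. After stimulation the counts were 0, 1 and 1 in CD18wt Treg and 0, 4 and 14 in CD18Foxp3 Treg. In TPM the unstimulated CD18wt libraries ranged from 0.54 to 4.39 and spanned the CD18Foxp3 range of 1.99 to 3.36. The reads of Ly6c2 are divided by an exon length of 2740 bases, which includes a transcript with a retained intron, and its TPM are lower for that reason than they would be over its coding transcript of 822 bases. A count of 0 allowed up to 0.284 TPM in the stimulated CD18wt library and 0.173 TPM in the stimulated CD18Foxp3 library without a read (3 counts; counting error only, since reads were amplified by PCR without molecular identifiers).

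Ly6c2 was lower in stimulated than in unstimulated Treg in both genotypes, although it did not pass the threshold in the unpaired test across genes. With a replicate block it passed in CD18Foxp3 Treg (-3.47, adjusted p = 0.00291 in edgeR), but same-numbered libraries did not meet the criterion for pairing. In CD18wt Treg, 105 of 45903783 exon reads were assigned to Ly6c2 before and 2 of 45417551 after stimulation, a ratio of 51.9 with an exact 95% interval of 14.03 to 434 for counting error; the counts were too low for the test across genes. Of the 105 reads, 81 came from replicate 2, and without that library the ratio was 19.6 (4.86 to 171), an alternative chosen after seeing the data. In CD18Foxp3 Treg, 142 reads stood against 18, and the log2 fold change was -3.12 (SE 0.83, adjusted p = 0.0102, edgeR quasi-likelihood test), just short of the threshold of 0.01. It was -2.52 (adjusted p = 0.00352) without stimulated CD18Foxp3 replicate 1 and -4.76 (adjusted p = 0.00156) without replicate 3 in the same edgeR test, whereas the other 4 libraries left out in turn gave an adjusted p of 0.0229 to 0.0393. Over the alternatives in test, scale or reads the adjusted p ranged from 9.81e-07 to 0.0115. Ly6c2 passed the filter on low counts here only through the unstimulated libraries, in which it is higher. These adjusted p are therefore given as a description and not as support for the fall. Between genotypes in unstimulated Treg the log2 fold change was 0.42 (SE 0.62). This value rested on single libraries, since it was 1.73 without CD18wt replicate 2 and 0.03 without CD18wt replicate 3. In stimulated Treg Ly6c2 was not tested across genes, and the exact permutation test gave p = 0.4.

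**Figure D2:**
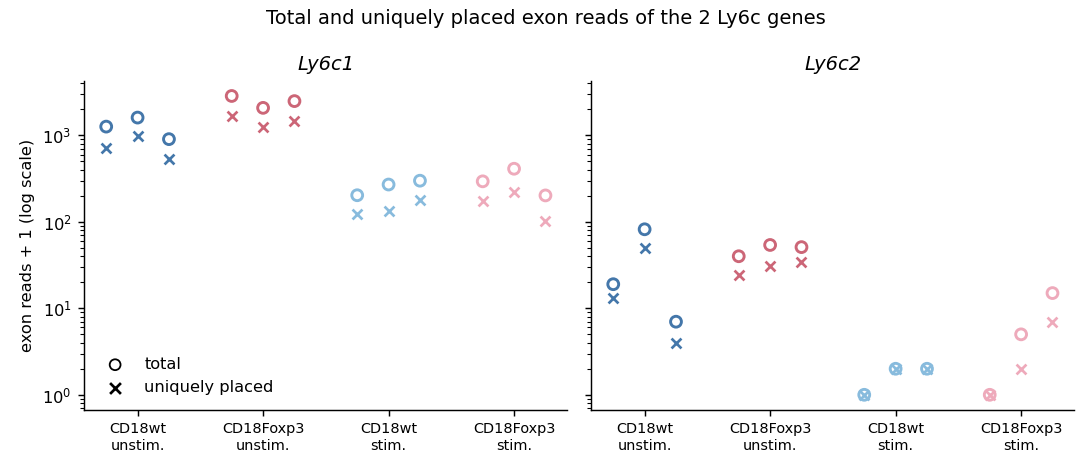
Total exon reads (circles) and uniquely placed exon reads (crosses) of Ly6c1 and Ly6c2, each plus 1, on a log axis, in the 3 libraries of each group. For Ly6c1 the distance between circle and cross is alike in all groups, with 48.7% to 61.0% of reads placed uniquely, and Ly6c2 is lower than Ly6c1 by both counts in every library.

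The differences of Ly6c1 were as large with reads placed uniquely as with all reads. Over all libraries 58.5% of 12859 Ly6c1 reads and 59.6% of 267 Ly6c2 reads were placed uniquely, compared with 93.1% for Ly6a and 100% for Ly6e. By group, the unique share of Ly6c1 was 59.3% in unstimulated CD18wt, 58.8% in unstimulated CD18Foxp3, 55.7% in stimulated CD18wt and 54.8% in stimulated CD18Foxp3 Treg. With uniquely placed reads alone, the log2 fold change of Ly6c1 upon stimulation was -2.56 in CD18wt and -3.34 in CD18Foxp3 Treg. The genotype value of Ly6c1 in unstimulated Treg was 0.78 both with unique reads and after adding the reads of the 2 genes together. Ly6c2 made up 1.64%, 4.77% and 0.55% of the unique reads of both genes in unstimulated CD18wt libraries and 1.37%, 2.38% and 2.19% in unstimulated CD18Foxp3 libraries. In stimulated CD18Foxp3 replicate 3 the share was 5.56% from 6 unique reads, and its Wilson 95% interval, which covers counting error only, ran from 2.57% to 11.6%. The other stimulated libraries held at most 1 unique read of Ly6c2.

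Among markers of monocytes, which express Ly6c2, Lyz2 was highest at 15.6 TPM in unstimulated CD18wt replicate 1, in which Ly6c2 was at 1.04 TPM, and not in replicate 2, in which Ly6c2 was at 4.39 TPM and Lyz2 at 4.06 TPM. Cd68 was at 3.89, 6.37 and 2.35 TPM in unstimulated CD18wt libraries, highest like Ly6c2 in replicate 2. Adgre1 was at most 0.17 TPM and Csf1r at most 0.40 TPM in any library. Ccr2, also a receptor of T cells, was at 9.25, 7.70 and 15.2 TPM in unstimulated CD18Foxp3 and at 3.73, 3.16 and 3.57 TPM in unstimulated CD18wt libraries. The summed level of the 5 markers was 11.7 to 23.4 TPM in unstimulated CD18wt and 13.5 to 20.3 TPM in unstimulated CD18Foxp3 Treg. After stimulation it was 7.09 to 11.4 TPM and 11.6 to 14.2 TPM. Cd68 was higher in stimulated CD18Foxp3 than in unstimulated CD18Foxp3 libraries and overlapped in CD18wt, at 5.56 to 7.84 TPM in CD18wt and 7.16 to 10.2 TPM in CD18Foxp3 libraries against 3.12 to 3.87 TPM in unstimulated CD18Foxp3 ones, and it was highest in stimulated CD18Foxp3 replicate 3, which held the most Ly6c2 reads of the stimulated libraries. Their part in the Ly6c1 and Ly6c2 values was not tested. In bulk RNA, fewer cells with a transcript cannot be told apart from less transcript per cell.

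Ly6a, the gene of Sca-1, was at higher levels in CD18Foxp3 than in CD18wt Treg in both cultures. Unstimulated CD18wt libraries were at 259.6, 204.8 and 266.7 TPM and unstimulated CD18Foxp3 libraries at 408.1, 319.8 and 550.4 TPM. Stimulated CD18wt libraries were at 244.4, 223.4 and 281.4 TPM and stimulated CD18Foxp3 libraries at 459.4, 472.9 and 383.1 TPM. In each culture every CD18Foxp3 library lay above every CD18wt library, which held for 8.74% of the genes tested in unstimulated and for 5.02% of those tested in stimulated Treg.

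In stimulated Treg Ly6a was at 249.7 ± 29.3 TPM in CD18wt and 438.4 ± 48.4 TPM in CD18Foxp3 Treg (SD, n = 3). The log2 fold change was 0.83 (SE 0.15) with an unadjusted p of 0.000133, and it did not pass the threshold after adjustment over 11930 genes (adjusted p = 0.216, edgeR quasi-likelihood test). In this comparison the test called 0% of genes, with 583 genes at an unadjusted p under 0.05. DESeq2 called 22 genes there and gave Ly6a an adjusted p of 0.00067. In edgeR without a filter on low counts it was 0.00207, and over all 9 alternatives in test, scale or reads it ranged from 0.00067 to 0.443. The exact permutation test gave its smallest possible value, p = 0.1. In unstimulated Treg the log2 fold change was 0.77 (SE 0.19), and the stimulation response of Ly6a differed between genotypes by 0.05 (SE 0.24). The sign of this difference rested on single libraries. It was -0.11 without unstimulated CD18Foxp3 replicate 2 and 0.25 without unstimulated CD18Foxp3 replicate 3.

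**Figure D3:**
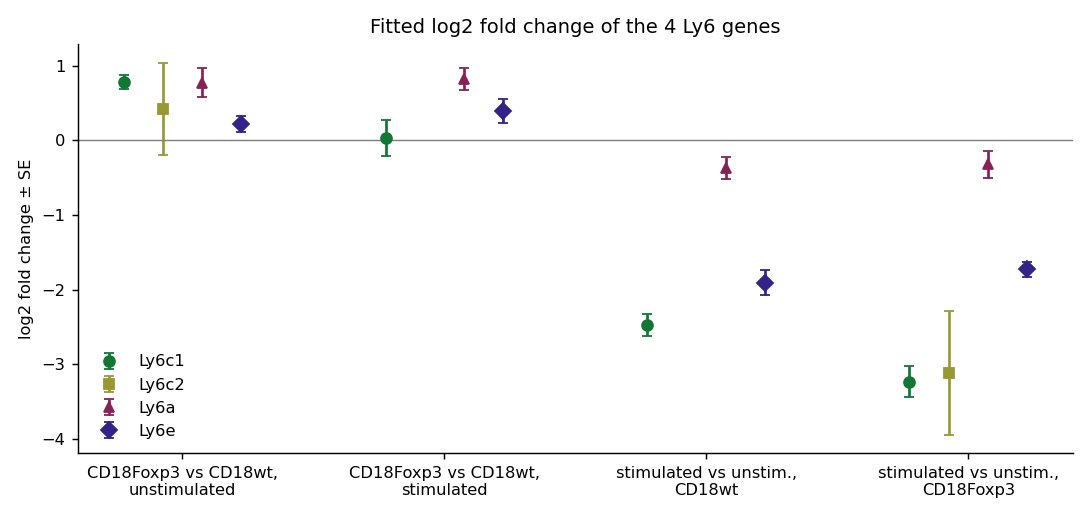
Fitted log2 fold change with its standard error (vertical axis) for each member in the 4 comparisons (horizontal axis); Ly6c2 is missing where its counts were too low to be tested. The genotype values of Ly6a are 0.77 and 0.83, whereas those of Ly6c1 are 0.79 and 0.03, and Ly6c1 and Ly6e lie far below 0 in both stimulation comparisons.

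Stimulation did not change Ly6a past the threshold. Its log2 fold change was -0.37 (SE 0.15, adjusted p = 0.0493) in CD18wt and -0.32 (SE 0.18, adjusted p = 0.159) in CD18Foxp3 Treg by the edgeR quasi-likelihood test. The sign depended on the scale, because on log2(TPM + 1) the values were 0.04 and 0.07. The TPM scale itself moved the median of all genes tested upon stimulation by 0.36 in CD18wt and 0.31 in CD18Foxp3 Treg, compared with 0.02 and 0.01 under TMM normalization. The fitted value of Ly6a lay below that of the median gene on both scales, short of the threshold. Under TMM it ran from -0.51 to -0.26 in CD18wt and from -0.48 to -0.12 in CD18Foxp3 Treg over libraries left out.

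Reads in the introns of Ly6a were more numerous in stimulated Treg. As parts per 1000000 intron reads of a library, Ly6a introns held 5.76, 2.10 and 5.46 in unstimulated CD18wt and 50.7, 23.2 and 69.7 in stimulated CD18wt libraries. In CD18Foxp3 Treg the values were 5.03, 7.72 and 9.50 before and 37.1, 74.6 and 65.5 after stimulation. The groups did not overlap in either genotype, with ratios of means of 10.8 and 7.96 and an exact permutation p of 0.1 in each. Such a separation was common, since intron reads of 30.9% of 14960 genes in CD18wt and of 39.3% of 15967 genes in CD18Foxp3 Treg (those with at least 10 intron reads in all) were higher in every stimulated library. The reads behind these values were few, 9 against 123 in CD18wt and 19 against 172 in CD18Foxp3 Treg, and 318 of all 323 were placed uniquely. Intron reads of all genes made up 3.32% to 5.02% of exon and intron reads in unstimulated and 3.65% to 5.99% in stimulated libraries. Between genotypes, intron reads of Ly6a in stimulated Treg overlapped (ratio 1.23, exact permutation p = 0.6). Ly6e introns went from a mean of 251 to 111 in CD18wt and from 253 to 153 in CD18Foxp3 Treg, in the same direction as its exon reads. In CD18Foxp3 Treg the groups nearly touched, with 190.4 in the lowest unstimulated and 188.7 in the highest stimulated library. The share of all genes with lower intron reads after stimulation was not counted.

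**Figure D4:**
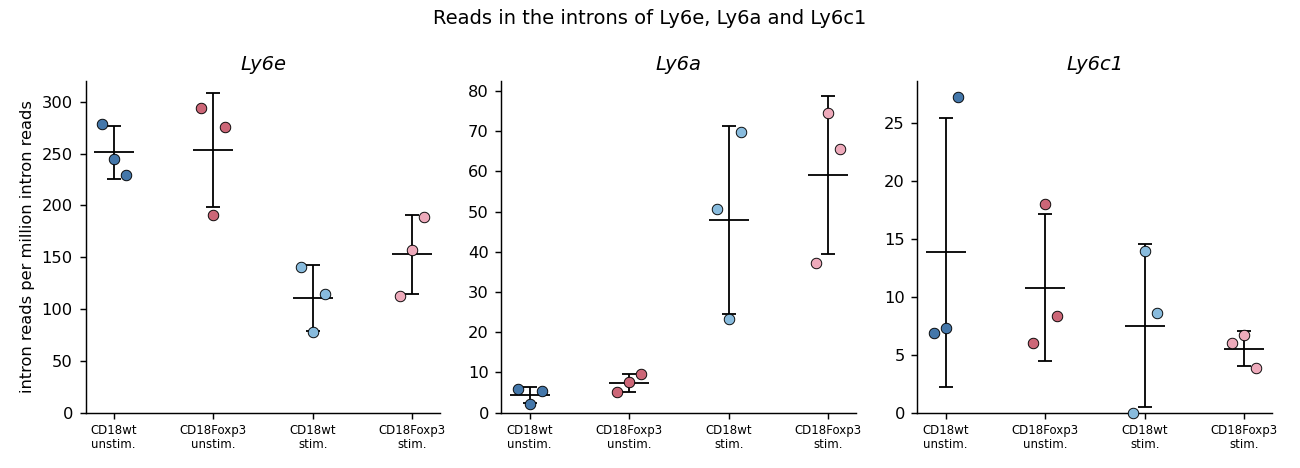
Reads in the introns of Ly6e, Ly6a and Ly6c1 per 1000000 intron reads of the library (vertical axes, starting at 0) in the 3 libraries of each group, with means and SD (bars cut at 0). Ly6a introns lie between 2.10 and 9.50 in unstimulated and between 23.2 and 74.6 in stimulated libraries. Ly6e introns are lower on average after stimulation, with the CD18Foxp3 groups nearly touching, and Ly6c1 introns overlap.

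Ly6e was the most abundant member and fell upon stimulation in both genotypes. Unstimulated CD18wt libraries were at 1280, 1018 and 1177 TPM, and stimulated CD18wt libraries at 500.0, 343.5 and 388.9 TPM. In CD18Foxp3 Treg the levels were 1367, 1301 and 1456 TPM before and 548.5, 494.8 and 557.1 TPM after stimulation. Not one unstimulated library overlapped a stimulated one, though the share of all genes that separate so was not counted. The log2 fold change was -1.91 in CD18wt (SE 0.17, adjusted p = 1.76e-06) and -1.73 in CD18Foxp3 Treg (SE 0.10, adjusted p = 3.18e-06, edgeR quasi-likelihood test). Of the members tested, 2 of 3 in CD18wt and 2 of 4 in CD18Foxp3 Treg were past the threshold, Ly6c1 and Ly6e in each case, both lower, beside 33.6% and 38.6% of all genes tested. Libraries with the same replicate number gave 2.56, 2.96 and 3.03 times as much Ly6e before as after stimulation in CD18wt and 2.49, 2.63 and 2.61 times in CD18Foxp3 Treg. Same-numbered libraries did not meet the criterion for pairing, so these ratios are a description.

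Between genotypes the values of Ly6e lay close together. In unstimulated Treg the lowest CD18Foxp3 library (1301 TPM) lay just above the highest CD18wt library (1280 TPM), as in 8.74% of genes tested. The log2 fold change of Ly6e was 0.22 (SE 0.11). That value was 0.12 without CD18wt replicate 2 and 0.28 without CD18wt replicate 1. In stimulated Treg the groups overlapped, and the log2 fold change of 0.40 (SE 0.16) did not pass the test (adjusted p = 0.949, edgeR quasi-likelihood test; exact permutation p = 0.2).

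RefSeq promoter sequences (GRCm38.p6) were at hand for Ly6c1 and Ly6c2, 2 of the 4 members. They are shown because both genes were lower in stimulated Treg, at levels far apart. The 250 bases upstream of the outermost start of each gene follow (chr15:75048838-75049087 for Ly6c1 and chr15:75111972-75112221 for Ly6c2, minus strand), and capitals mark a motif that was searched for.
Ly6c1: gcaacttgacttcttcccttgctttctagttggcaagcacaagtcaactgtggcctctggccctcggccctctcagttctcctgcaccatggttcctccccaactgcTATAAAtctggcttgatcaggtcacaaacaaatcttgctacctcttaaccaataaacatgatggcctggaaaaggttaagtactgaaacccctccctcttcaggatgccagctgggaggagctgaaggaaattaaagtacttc
Ly6c2: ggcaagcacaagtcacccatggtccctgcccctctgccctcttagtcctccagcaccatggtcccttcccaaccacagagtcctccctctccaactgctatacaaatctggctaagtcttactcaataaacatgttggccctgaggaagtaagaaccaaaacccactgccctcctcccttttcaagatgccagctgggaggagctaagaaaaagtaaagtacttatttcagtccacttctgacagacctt
On both strands, the letters TATAAA occurred in Ly6c1 and not in Ly6c2, and in 12.4% of 32851 promoters searched over the same 250 bases. In Ly6c1 they begin at base 108 of those printed, and whether they bear on its level was not tested. A second, inner promoter entry of Ly6c1 did not hold these letters. The GAS letters TTCNNNGAA, to which STAT dimers bind, occurred in 7.02% of promoters and in neither Ly6c gene. The letters GAAANNGAA, part of the interferon-stimulated response element, occurred in 7.13% and in neither. TATAAA does not overlap the other motifs.

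Other members of the Ly6/uPAR family were measured for comparison, by a list of 46 names of which 38 were in the tables. Of these, 16 had no read in any library and 28 had at most 10 reads in any library. Among those with reads, Ly6k had the highest level, with 14.9 TPM in unstimulated and 7.64 TPM in stimulated CD18wt Treg and 13.4 and 8.92 TPM in CD18Foxp3 Treg. Ly6i, a neighbour of Ly6a that shares 22 stretches of 59 bases with it, had 44 reads in all, and Ly6g, a neutrophil marker, had 1.

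In CD18Foxp3 Treg 3 of 7 tested relatives passed the threshold upon stimulation, a share near the 38.6% of all genes tested. Plaur, the urokinase receptor, rose from 0.244 to 6.05 TPM (log2 fold change 4.24, SE 0.39, adjusted p = 2.66e-05). Bambi, a pseudoreceptor of TGF-β signalling, fell from 1.17 to 0.36 TPM (-2.06, SE 0.42, adjusted p = 0.00257), and 2010109I03Rik fell from 1.82 to 0.366 TPM (-2.63, SE 0.50, adjusted p = 0.00164, edgeR quasi-likelihood test for all 3). Plaur was too low to be tested between genotypes in unstimulated Treg, and 2010109I03Rik in stimulated Treg. Each thus passed the filter on low counts here through the culture in which it is higher. The adjusted p of Plaur and 2010109I03Rik are therefore a description and not support for the change. In CD18wt Treg 0 of 7 relatives passed by edgeR, beside 33.6% of the 11930 genes tested. There the log2 fold change was 2.44 for Plaur, -2.07 for 2010109I03Rik, -2.21 for Lypd1, 1.57 for Lypd6b, -1.35 for Ly6k, -1.21 for Bambi and -0.80 for Lynx1, with adjusted p from 0.0128 to 0.344. The same limit of the filter holds there for Plaur, 2010109I03Rik and Lypd1. The difference between genotypes in these responses reached an adjusted p of at least 0.988 for each. In the genotype comparisons 0 of 7 relatives passed in unstimulated and 0 of 6 in stimulated Treg. Of all genes tested, 0.135% and 0% passed there. The largest log2 fold change of a relative between genotypes was 1.24 for Ly6g5b in stimulated Treg (SE 0.78).

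Genes that build or remodel the GPI anchor moved in both directions upon stimulation. Of 28 tested, 5 rose and 8 fell in CD18wt Treg, and the same numbers did so in CD18Foxp3 Treg. Of all genes, 18.7% rose and 14.9% fell in CD18wt and 20.9% rose and 17.6% fell in CD18Foxp3 Treg. The median log2 fold change was 0.01 and -0.05, beside 0.02 and 0.01 for all genes. Gpaa1, a subunit of the transamidase that attaches the anchor, rose from 14.3 to 44.8 TPM in CD18wt (log2 fold change 1.24, SE 0.17) and from 13.2 to 44.7 TPM in CD18Foxp3 Treg (1.39, SE 0.23). Piga, which acts in the first step of anchor synthesis, rose in CD18wt Treg (1.25, SE 0.26), and Pigf rose in CD18Foxp3 Treg (1.28, SE 0.17). Pigv, a mannosyltransferase, fell in CD18wt (-1.77, SE 0.19) and CD18Foxp3 Treg (-1.89, SE 0.19), and so did Pigp, which acts in the first step (-1.65, SE 0.24, and -1.29, SE 0.22). No gene of this list passed the threshold between genotypes in either culture by edgeR. Of all genes tested, 0.135% passed it in unstimulated and 0% in stimulated Treg.

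Interferon response genes, to which Ly6 genes are often counted, fell more often than they rose upon stimulation. In CD18wt Treg 21 of 39 fell and 3 rose, with a median log2 fold change of -1.61, and in CD18Foxp3 Treg 24 of 40 fell and 1 rose, with a median of -1.61. The share of all genes that fell past the threshold was 14.9% and 17.6%. Between genotypes, 40 genes of the list were tested in unstimulated but 33 in stimulated Treg. Some thus passed the filter on low counts only through the unstimulated libraries, in which they are higher. For those genes a fall was given by the filter, so the counts and medians are a description. Rsad2, an antiviral enzyme, fell from 4.08 to 0.411 TPM in CD18wt (log2 fold change -3.70, SE 0.42) and from 4.41 to 0.266 TPM in CD18Foxp3 Treg (-4.37, SE 0.35). Ifit3b fell to 0.0865 TPM in CD18wt (-6.00, SE 0.95) and Ifi44 to 0.029 TPM in CD18Foxp3 Treg (-5.81, SE 0.51), levels near the floor. Socs1, a feedback inhibitor of cytokine receptors, rose from 37.9 to 157 TPM in CD18wt (1.66, SE 0.32) and from 31.0 to 154 TPM in CD18Foxp3 Treg (1.94, SE 0.22). Gbp2, a guanylate-binding protein, rose in CD18wt Treg (1.05, SE 0.22). Between genotypes 0 of 40 passed in unstimulated Treg, with a median of 0.25, and 0 of 33 in stimulated Treg, with a median of 0.09, by edgeR. Of all genes tested, 0.135% and 0% passed there, with medians of -0.004 and -0.003.

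Genes of central (resting) Treg mostly fell and those of effector Treg mostly rose where they passed the test upon stimulation. Of 13 genes of central Treg, 11 fell and 1 rose in each genotype, where 14.9% (CD18wt) and 17.6% (CD18Foxp3) of all genes fell. Klf2, a transcription factor of resting T cells, fell in CD18wt (-2.99, SE 0.50) and CD18Foxp3 Treg (-3.18, SE 0.15). The exception, Bach2, a transcriptional repressor, rose by 1.30 (SE 0.16) and 0.87 (SE 0.17). Of 14 genes of effector Treg, 7 rose in each genotype, and 2 fell in CD18wt and 0 in CD18Foxp3 Treg, where 18.7% and 20.9% of all genes rose. Irf4, a transcription factor induced by the T cell receptor, rose from 27.8 to 467 TPM in CD18wt and from 21.0 to 416 TPM in CD18Foxp3 Treg. Gzmb, the protease granzyme B, rose from 3.28 to 49.3 TPM and from 8.88 to 210 TPM. Those that fell in CD18wt Treg were Itgae, the αE integrin chain (-1.74, SE 0.32), and Maf, a transcription factor (-1.46, SE 0.20). Between genotypes in stimulated Treg 0 of 14 effector genes passed the threshold by edgeR, beside 0% of all genes tested. The median of the effector list there was 0.77, beside 0.00 for all genes, and that of the central list was -0.19. In unstimulated Treg the medians were 0.23 and 0.05.

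Within each culture, the genes whose log2 CPM (scaled counts) followed each member most closely were sought among up to 11234 genes, by the lower of the correlations over the 6 unstimulated and over the 6 stimulated libraries. These correlations describe libraries that share genotype and depth, and no test was made. The genes named were picked as the highest of so many, so high values are given by the choice. For Ly6c1 they were Dnajc24 (r = 0.96 and 0.81), Gm4841 (0.82 and 0.87) and Gm14296 (0.82 and 0.90). For Ly6a they were Gm13546 (0.89 and 0.99), Gm16062 (0.87 and 0.90) and Vamp3, a vesicle fusion protein (0.86 and 0.90). For Ly6e they were Tmem208 (0.92 and 0.94), Havcr2, the receptor Tim-3 (0.92 and 0.94), and AW112010 (0.97 and 0.90). For the few reads of Ly6c2, from 0 to 14 in stimulated libraries, they were Tnfrsf18, the receptor GITR (0.91 and 0.97), Foxp3 (0.87 and 0.87) and Fgf16 (0.90 and 0.85). Among the members themselves, Ly6a and Ly6e had r = 0.87 in unstimulated and 0.71 in stimulated Treg, whereas Ly6c1 and Ly6a had 0.82 and 0.12, and Ly6c1 and Ly6c2 had 0.47 and -0.25.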

How the data were processed

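RNA of sorted splenic Treg (15 PCR cycles of poly(A) libraries, 59-base single reads, strandedness not stated) was mapped to GRCm38 in CLC Genomics Workbench by the authors, per the labels and the methods. The authors deposited, per library and gene, raw counts of total and uniquely placed exon reads and intron reads, and TPM, a level per exon length. How reads that fit several genes were assigned is not given in the sources used here. RPKM were not used.

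Exon counts were fitted with edgeR 4.0.16 (R 4.3.3; filterByExpr with a minimum count of 10, TMM, robust quasi-likelihood test) on the 6 libraries of each comparison, or all 12 for the difference of responses. A call needed a 1.5-fold change or more with an adjusted p (Benjamini-Hochberg, over all genes tested) no higher than 0.01. The SE is the log2 fold change divided by the root of F. Levels were compared by exact two-sided permutation tests on log2(TPM + 1), and intron reads on their share of all intron reads. Alternatives were DESeq2 1.42.0, limma 3.58.1 on log2 TPM with a pseudocount of 1 or 0.1, upper-quartile normalization, no filter, unique reads, Ly6c1 and Ly6c2 summed, a replicate block, all 12 libraries in 1 fit, and each library left out. The code was tested on simulated data. Replicates differed by more than counting error, with a chi-square per gene of 5.88 to 59.7 between pairs. Stimulated CD18Foxp3 replicate 1 (54.5 and 59.7, against 11.2 for the other pair) and unstimulated CD18wt replicate 3 (38.6 and 37.1, against 11.4) stood apart within their groups. Without the former the adjusted p of Ly6c2 upon stimulation in CD18Foxp3 Treg was 0.00352, and without the latter 44 rather than 16 genes passed between genotypes in unstimulated Treg.

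Members and gene lists were chosen with earlier results of these data known. Relatives of the family are named where tested in a comparison, with a few low ones; from the other lists the 2 largest rises and falls past the threshold are named. Some genes of these lists are not reported here. Monocyte markers named beside Ly6c2 were chosen after their values were seen.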

Additional observations from a re-analysis of the deposited data

How the results depend on the processing

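Of 290 values of the members under an alternative, 259 kept their direction and their side of the threshold or, for comparisons given as descriptions, lay within 1 SD between replicates. The fall of Ly6c1 and Ly6e upon stimulation kept its direction and passed the threshold in both genotypes. Leaving out one library at a time gave log2 fold changes of -2.56 to -2.43 for Ly6c1 and -2.06 to -1.85 for Ly6e in CD18wt Treg, and -3.52 to -3.08 and -1.78 to -1.66 in CD18Foxp3 Treg. Ly6a reversed upon stimulation with limma on TPM, at 0.038 and 0.039 in CD18wt and at 0.070 and 0.071 in CD18Foxp3 Treg with pseudocounts of 1 and 0.1. This goes with the shift of all genes on that scale. Between genotypes in stimulated Treg, Ly6a passed the threshold with DESeq2 (0.82) and without the filter (0.84), and its adjusted p in edgeR was 0.267 to 0.993 with one library left out; the cause was not tested. Ly6c1 there reversed with unique reads (-0.008), with limma (-0.026 and -0.028), with the replicate block (-0.015) and, over libraries left out, ranged from -0.25 to 0.20.

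For Ly6c2 upon stimulation in CD18Foxp3 Treg the threshold was passed with DESeq2 (-3.14), upper-quartile normalization (-3.18), no filter (-3.10), unique reads (-3.73), limma on log2(TPM + 1) (-1.45), the replicate block (-3.47, adjusted p = 0.00291 in edgeR) and all 12 libraries (-3.10), and the range over libraries left out was -4.76 to -2.52. The sum with Ly6c1 (-3.23) is nearly all Ly6c1 and does not bear on Ly6c2. Its genotype value in unstimulated Treg ranged from 0.03 to 1.73 over libraries left out. Its difference in response, 2.39 in the report's fit, was 1.07 with unique reads, -0.15 and 0.36 with limma, 1.72 with the replicate block and -0.73 summed with Ly6c1, and 0.75 to 2.99 over libraries left out. For Ly6c1 that difference was -1.05 to -0.60 over libraries left out. The causes were not tested.

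The number of genes past the threshold between genotypes in unstimulated Treg was 16. It was 86 with DESeq2, 134 without the filter, 1 and 5 with limma, 41 with the replicate block, 0 with all 12 libraries, and 0 to 44 over libraries left out. In stimulated Treg the 0 genes became 22 with DESeq2, 61 without the filter, 1 with log2(TPM + 0.1), 1 with the replicate block and 0 to 2 over libraries left out. For the difference in response the 0 genes (485 at an unadjusted p under 0.05) became 1 with DESeq2, 31 without the filter and 1 with each limma fit. Same-numbered libraries did not meet the criterion for pairing (every correlation over 0.1), with correlations of their deviations from group means between -0.132 and 0.147; every library correlated best with its own number only for stimulation in CD18Foxp3 Treg. Identifiers in the deposited data recur between same-numbered libraries of both cultures within a genotype and may mark mice, which the labels do not state. Low counts limit what can be said of Ly6c2.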
